A study of Rattus norvegicus with 44 samples.

Results

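The genes described here encode the nuclear subunits of the oxidative phosphorylation complexes, measured in liver and kidney of rats given crude MCHM by mouth. They were chosen by symbol from the array's annotation. A probe set, the group of short probes that reads 1 transcript on the array, was taken if it carried exactly 1 gene symbol and that symbol began with Nduf, Uqcr, Cox4 to Cox8 or Atp5, or was Sdha, Sdhb, Sdhc or Sdhd. This gave 86 of the 14217 genes with a symbol of their own, read on 96 of 31042 probe sets. The brightest probe set stood for the 9 genes with several, and 7 further probe sets with several symbols were left out. By symbol, 36 genes belonged to complex I, 4 to complex II, 7 to complex III, 17 to complex IV and 16 to complex V. Another 6 (Ndufaf1, Ndufaf3, Ndufaf4, Ndufaf5, Ndufaf7 and Ndufaf8) match the symbol rule but help to assemble complex I and are not subunits of it, and they are given as a group of their own. Cox7a2, Uqcrb, Atp5mc1 and Atp5mc2 were not analysed here, Cox6c-ps1 is a pseudogene entry, and the Ndufa4 protein, named for complex I, is now known as a component of complex IV.

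Crude MCHM is a mixture used in coal processing whose main component is 4-methylcyclohexanemethanol. Male Harlan Sprague Dawley rats, 6 to 8 weeks old when assigned, received 0, 0.1, 1, 10, 100, 300 or 500 mg/kg in corn oil at 5 mL/kg by gavage for 5 days, and tissue was taken the day after the last dose. The vehicle rats therefore share the corn oil and the gavage with every dosed group. The 44 arrays comprised 27 livers, 4 at each dose but 3 at 0.1 mg/kg, and 17 kidneys, 3 each at 0, 300 and 500 mg/kg and 2 at each other dose. The question was which transcripts respond to a short exposure, and from which dose.

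The respiratory chain sits in the inner mitochondrial membrane. Complexes I and II pass electrons from NADH and succinate to ubiquinone, complex III hands them to cytochrome c, and complex IV gives them to oxygen, while complexes I, III and IV pump protons. Complex V, the ATP synthase, lets the protons back and makes ATP. Most subunits are encoded in the nucleus and several of complex IV come in alternative forms, one widespread and one found mainly in heart, skeletal muscle, brown fat, lung or testis. Hepatocytes and the proximal tubule of the kidney are both rich in mitochondria.

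Promoters of the members were read for short motifs bound by factors known to act on nuclear respiratory genes. The windows run from 250 bases before to 50 bases after the start of the gene, and the sequences are RefSeq's on the rat assembly GRCr8, matched by gene ID for 78 of the 86 members. The motifs, searched on both strands, were the NRF1 motif GCGCATGC, the ETS motif CCGGAAG, the ERR motif AAGGTCA and the YY1 motif AAGATGGC. A palindromic NRF1 site holds overlapping matches on both strands. The 4 windows shown belong to the ATP synthase gamma subunit gene Atp5f1c, the only member past the test in a dose comparison; to Ndufs7, the complex I member with the smallest p in liver at 500 mg/kg; and to Atp5po and Cox8a, which were among the members furthest below kidney in liver. Letters run 5′ to 3′ along the gene, and capitals mark a motif match on either strand.

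Atp5f1c promoter, chr17:73333435-73333734, plus strand: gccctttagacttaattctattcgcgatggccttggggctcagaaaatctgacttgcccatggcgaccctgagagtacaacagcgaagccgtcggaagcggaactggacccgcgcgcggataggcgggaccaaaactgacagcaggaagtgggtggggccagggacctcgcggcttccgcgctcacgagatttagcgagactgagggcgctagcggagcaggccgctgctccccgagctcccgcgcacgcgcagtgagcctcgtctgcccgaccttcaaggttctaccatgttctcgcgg
Ndufs7 promoter, chr7:10110449-10110748, minus strand: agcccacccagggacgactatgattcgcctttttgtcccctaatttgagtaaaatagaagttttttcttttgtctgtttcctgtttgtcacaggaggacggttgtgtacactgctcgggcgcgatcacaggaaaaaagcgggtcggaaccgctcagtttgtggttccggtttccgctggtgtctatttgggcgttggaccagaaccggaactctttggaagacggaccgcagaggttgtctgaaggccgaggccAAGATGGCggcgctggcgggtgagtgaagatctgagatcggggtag
Atp5po promoter, chr11:44657434-44657733, minus strand: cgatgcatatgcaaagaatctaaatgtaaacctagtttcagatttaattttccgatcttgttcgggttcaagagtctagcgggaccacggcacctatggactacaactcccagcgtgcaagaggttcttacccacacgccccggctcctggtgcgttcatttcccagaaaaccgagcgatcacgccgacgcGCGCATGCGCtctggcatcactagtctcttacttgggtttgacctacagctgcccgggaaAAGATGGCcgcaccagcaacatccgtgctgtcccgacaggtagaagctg
Cox8a promoter, chr1:213833574-213833873, minus strand: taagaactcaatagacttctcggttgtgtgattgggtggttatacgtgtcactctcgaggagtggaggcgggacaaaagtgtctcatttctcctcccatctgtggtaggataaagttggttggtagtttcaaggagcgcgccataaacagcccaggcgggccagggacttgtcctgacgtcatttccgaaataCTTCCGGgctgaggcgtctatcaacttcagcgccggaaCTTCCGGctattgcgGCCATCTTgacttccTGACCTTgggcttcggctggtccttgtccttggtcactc

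The Atp5f1c window held none of the 4 motifs, which says only that these letters are not in this window. Ndufs7 held a YY1 match close to the start, Atp5po held an NRF1 palindrome and a YY1 match, and Cox8a held ETS, YY1 and ERR matches on the opposite strand. Of other members far below kidney in liver, whose windows are not shown, Atp5if1 held none of the 4 motifs. Atp5mpl held only an ERR match. Over the 78 member promoters, 9 (11.5%) held the NRF1 motif against 2.66% of all 27457 promoters of the same length. The ETS motif was in 22 (28.2%) against 9.22%, the ERR motif in 11 (14.1%) against 4.37%, and the YY1 motif in 17 (21.8%) against 3.44%. At least 1 of the 4 was in 41 member promoters (52.6%) and in 18.0% of all. The member promoters also had more G and C, with a median of 56.0% against 52.3%, and the part of base composition in these shares was not tested. By complex, the ERR motif was in 5 of 15 complex V promoters and 3 of 34 complex I promoters, while the NRF1 motif was in 0 of 13 complex IV promoters.

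The values are log2 intensities from an Affymetrix rat array, normalized and freed of batch effects by the authors, so a difference of 1 is a doubling. Arrays of one organ resembled each other closely, with correlations of 0.989 to 0.994 in liver and 0.984 to 0.996 in kidney. Hepatocyte markers were higher in vehicle liver than in vehicle kidney for 7 of 7 measured, and proximal tubule markers were lower for 10 of 10, as the organ labels say. Several arrays stood apart. Vehicle replicate 2 carried Xist, a transcript normally made from the inactive X chromosome, at 8.25 in liver and 6.95 in kidney, against at most 3.27 and 3.02 on the other arrays of those organs, all labelled male. In kidney, replicate 3 at vehicle and replicate 2 at 1, 300 and 500 mg/kg carried the brown fat uncoupling protein Ucp1 at 9.17 to 11.47, against 4.39 to 5.28 on the other 13. The kidney array of 1 mg/kg replicate 1 carried albumin at 11.06, and the mean of its 7 hepatocyte markers was 7.92 against 4.64 to 5.13 on the other 16. The GAPDH control probe sets read 3′ over 5′ by 2.00 on kidney 300 mg/kg replicate 2, against 0.19 to 0.60 on the other kidney arrays and 0.03 to 0.17 in liver. Some results that rest on these arrays are given with and without them, and others with all arrays only.

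Most members were bright and steady. The mean level over arrays was above 10 for 66 of the 86 in liver and 70 in kidney, and below 6 for 8 in each. The standard deviation within dose groups had a median over members of 0.07 in liver and 0.08 in kidney. The widest range over liver arrays was 1.29, for the complex I assembly factor Ndufaf4. In kidney it was 5.35, for Cox8b, the heart, muscle and brown fat form of a small complex IV subunit.

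In liver, members lay slightly above vehicle at the highest dose, with the complex IV members centred on it. At 500 mg/kg, 69 of 86 members were above vehicle with a median difference of 0.09, while 51.2% of all probe sets were above vehicle with a median of 0.00. The brighter probe sets of the array, those above the median mean level, gave 53.3% and 0.01. After Benjamini-Hochberg adjustment over all probe sets limma called 0 of the 86 members, where it called 0.177% of all probe sets. At an unadjusted p under 0.05 it marked 14 members, all higher, beside 8.99% of all probe sets. In 19 members all 4 arrays of 500 mg/kg lay above all 4 vehicle arrays, as they did for 3.40% of all probe sets, and in 0 members they lay below all of them, as for 2.43%. In bulk tissue, fewer cells of a type and less RNA per cell cannot be told apart, nor can more of either.

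The median over the 86 members of each array's distance from the vehicle mean shows the same. It was -0.01, 0.06, -0.06 and 0.02 on the 4 vehicle livers and 0.07, 0.08, 0.09 and 0.10 on the 4 livers of 500 mg/kg. The 500 mg/kg arrays were all above the vehicle arrays and lay closer together than the vehicle arrays did. At 300 mg/kg the median ran from -0.02 to 0.07, within the span of vehicle and 500 mg/kg together, and at 0.1 mg/kg it was -0.04, -0.05 and -0.04. The size at 500 mg/kg depended on scaling: a second quantile normalization of the liver arrays brought the median difference from 0.09 to 0.06, with 60 of 86 members above vehicle. Without vehicle replicate 2, the array with Xist, the median was 0.10 with 75 of 86 above, and at 300 mg/kg 0.05 with 67 of 86.

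**Figure D1:**
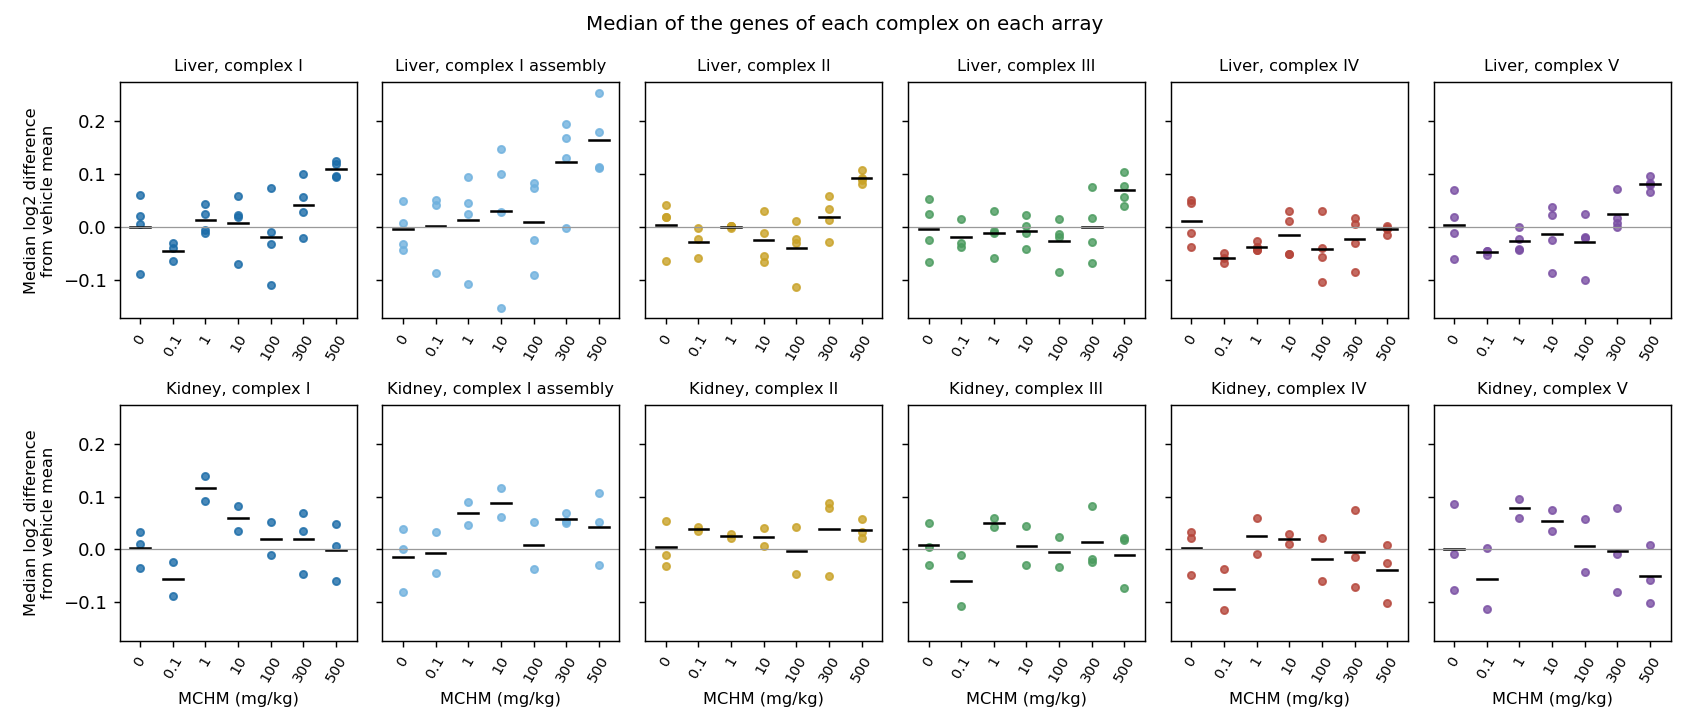
Median log2 difference from the vehicle mean over the genes of each complex, 1 point per array and a bar at the mean of each dose group, by dose in mg/kg (evenly spaced categories), with liver in the upper panels and kidney in the lower. In liver complex I the 4 arrays of 500 mg/kg sit between 0.09 and 0.13, above all 4 vehicle arrays, while in liver complex IV they sit between -0.01 and 0.00, inside the vehicle span.

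The complexes differed in how far they lay from vehicle in liver at 500 mg/kg. Complex I had 32 of 36 members above vehicle with a median of 0.11, and the assembly factors 6 of 6 with a median of 0.16. Complex II had 4 of 4 above with a median of 0.10, complex III 6 of 7 with 0.07, and complex V 14 of 16 with 0.09. Complex IV had 7 of 17 above and a median of -0.01 (10 of 17 and 0.02 without vehicle replicate 2, the array with Xist), and its 11 bright members had 6 above and a median of 0.00. No test was made between complexes.

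**Figure D2:**
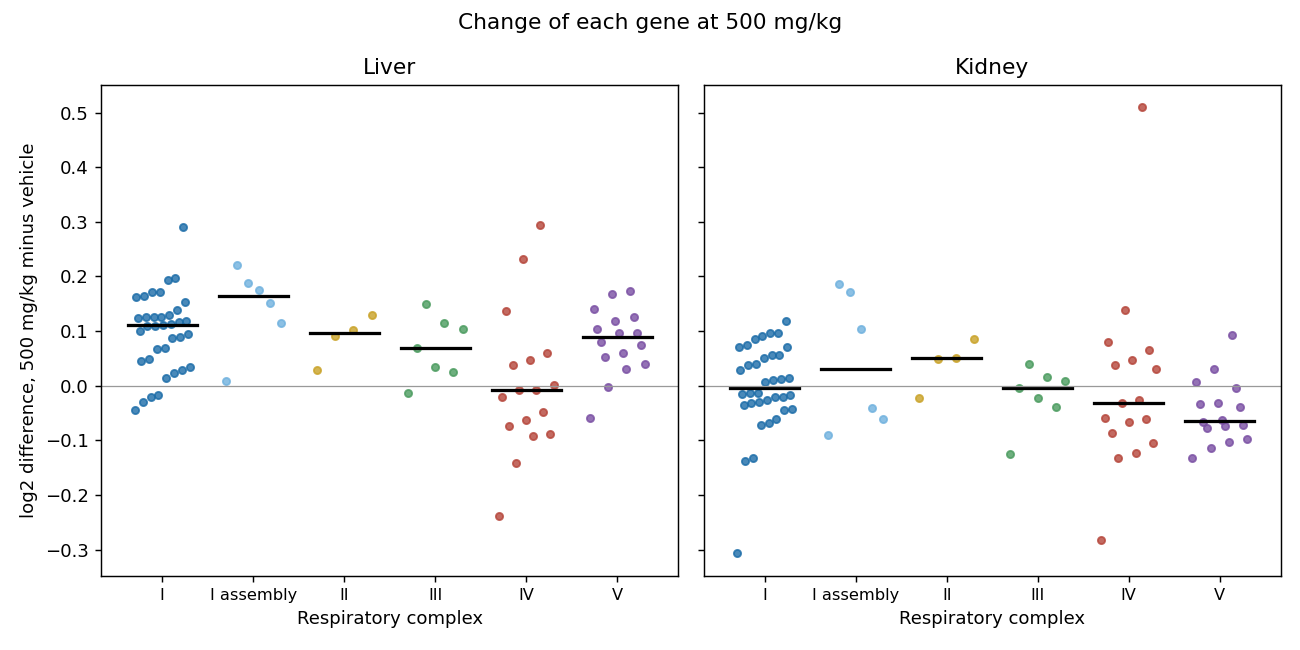
Log2 difference of every member at 500 mg/kg from vehicle, grouped by complex, for liver and kidney, with a bar at each group's median. In liver most points of complexes I, II, III and V lie above 0 and complex IV centres on 0, while in kidney complex V centres below 0.

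In complex I, Ndufs7, an iron-sulfur subunit near the ubiquinone site, read 10.72, 10.75, 10.52 and 10.64 on the vehicle livers and 10.91, 10.88, 10.97 and 11.05 at 500 mg/kg. The groups did not overlap, and the difference was 0.29 (SE 0.08, adjusted p = 0.185, limma). Ndufv3, a small subunit beside the NADH-binding site, read 10.47, 10.58, 10.36 and 10.53 in vehicle and 10.64, 10.66, 10.73 and 10.70 at 500 mg/kg. These groups did not overlap either, with a difference of 0.20 (SE 0.07, adjusted p = 0.320), and averaging it with its dimmer second probe set gave 0.08. The iron-sulfur subunit Ndufs1 and the NADH-binding Ndufv1 each differed by 0.13 (SE 0.07, adjusted p = 0.615 and 0.629). Besides Ndufs7 and Ndufv3, the complex I members whose groups did not overlap were Ndufa8, Ndufab1, Ndufb5, Ndufb7, Ndufb9, Ndufb10, Ndufs3 and Ndufv2.

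Among the assembly factors, Ndufaf7, which acts early in building complex I, read 7.08, 6.99, 7.14 and 7.005 in vehicle livers and 7.26, 7.18, 7.25 and 7.29 at 500 mg/kg. The groups did not overlap and differed by 0.19 (SE 0.09, adjusted p = 0.507). Ndufaf8 read 7.93, 7.82, 7.77 and 7.90 in vehicle and 7.97, 8.01, 8.05 and 8.11 at 500 mg/kg, again without overlap, with a difference of 0.18 (SE 0.08, adjusted p = 0.542). Both were also above vehicle in every kidney array of 500 mg/kg. Ndufaf7 there read 7.32, 7.29 and 7.22 in vehicle and 7.59, 7.44 and 7.36 at 500 mg/kg, a difference of 0.19 (SE 0.08, adjusted p = 0.457). The dimmer second probe set of Ndufaf7 differed by 0.05 in kidney and 0.23 in liver. Ndufaf8 in kidney read 8.45, 8.65 and 8.52 in vehicle and 8.75, 8.72 and 8.67 at 500 mg/kg, a difference of 0.17 (SE 0.09, adjusted p = 0.556).

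Ndufaf4, chosen here after its values were seen, did not follow the order of the doses in liver. It read 7.82, 7.52, 8.16 and 8.13 in vehicle and 8.48, 8.32 and 8.53 at 0.1 mg/kg, while the arrays of 300 mg/kg gave 8.73, 8.37, 8.55 and 8.63. At 500 mg/kg it read 8.13, 8.20, 7.93 and 8.25. All arrays of 0.1 and 300 mg/kg were above all vehicle arrays, while 500 mg/kg overlapped vehicle. The difference was 0.66 at 300 mg/kg (SE 0.17, adjusted p = 0.118) and 0.22 at 500 mg/kg (adjusted p = 0.768).

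Complex II, the succinate dehydrogenase that also belongs to the citric acid cycle, lay closest to vehicle in its catalytic part. The flavoprotein Sdha read 11.15, 11.23, 11.09 and 11.12 in vehicle livers and 11.19, 11.12, 11.20 and 11.20 at 500 mg/kg, overlapping, with a difference of 0.03 (SE 0.06, adjusted p = 0.947). The membrane anchor Sdhc read 11.19, 11.05, 11.03 and 11.12 in vehicle and 11.24, 11.18, 11.26 and 11.24 at 500 mg/kg. Its groups overlapped by 1 vehicle array, and the difference was 0.13 (SE 0.06, adjusted p = 0.568). The iron-sulfur subunit Sdhb differed by 0.09 and the other anchor Sdhd by 0.10 (SE 0.06 each, adjusted p = 0.702 and 0.675). A second probe set of Sdhd gave 0.15.

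In complex III, the Rieske iron-sulfur protein Uqcrfs1 read 11.76, 11.77, 11.69 and 11.75 in vehicle livers and 11.93, 11.88, 11.86 and 11.90 at 500 mg/kg. The groups did not overlap and differed by 0.15 (SE 0.06, adjusted p = 0.405). The small subunit Uqcr10 differed by 0.11 (SE 0.07, adjusted p = 0.657), and the core proteins Uqcrc1 and Uqcrc2 by 0.07 and 0.02 (SE 0.06 each, adjusted p = 0.816 and 0.956). A dimmer second probe set of Uqcrc2 gave 0.11. Cyc1, the cytochrome subunit of this complex that the symbol rule does not take, differed by 0.16 (adjusted p = 0.486).

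In complex IV several members lay close to 0. Cox4i1, the widespread form of a subunit that regulates the enzyme, read 12.06, 12.19, 12.03 and 12.19 in vehicle livers and 12.11, 12.10, 12.11 and 12.12 at 500 mg/kg, a difference of -0.01 (SE 0.06, adjusted p = 0.988). The 4 dosed arrays all lay inside the span of the vehicle arrays. Cox5b differed by -0.01 (SE 0.06, adjusted p = 0.987) and Cox8a by 0.00. The bright Cox6a1 lay further up at 0.14 (SE 0.07, adjusted p = 0.563), with Cox6c at 0.06, Cox6b1 at 0.04, Cox7b at -0.02 and Cox7c at -0.05. Cox5a, another early-assembling subunit, read 7.15, 7.002, 6.76 and 7.13 in vehicle livers. At 300 mg/kg it read 7.28, 7.30, 7.38 and 7.23, while the arrays of 500 mg/kg gave 6.96, 7.41, 7.11 and 7.48. It lay above vehicle without overlap at 300 mg/kg (0.29, SE 0.11, adjusted p = 0.337) and overlapped it at 500 mg/kg (0.23, adjusted p = 0.517). Cox7b2, a testis form at the floor of the array, differed by 0.29 (SE 0.12, adjusted p = 0.474) with overlapping groups of 2.68 to 3.07 and 2.94 to 3.44. Among the other forms of limited tissue range, Cox4i2 differed by -0.24 (SE 0.12, adjusted p = 0.584), Cox6a2 by -0.07, Cox6b2 by -0.14, Cox7a1 by -0.06 and Cox8b by -0.09.

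In complex V, Atp5f1c encodes the gamma subunit, the shaft that turns inside the catalytic head. It read 12.30, 12.41, 12.28 and 12.29 in vehicle livers and 12.45, 12.51, 12.50 and 12.48 at 500 mg/kg. No dosed array overlapped vehicle, although vehicle replicate 2, the one with Xist, came close, and the difference was 0.17 (SE 0.06, adjusted p = 0.336). The delta subunit Atp5f1d, part of the same rotor, read 11.23, 11.23, 11.05 and 11.26 in vehicle and 11.37, 11.30, 11.43 and 11.37 at 500 mg/kg, without overlap, a difference of 0.17 (SE 0.07, adjusted p = 0.460). The catalytic beta subunit Atp5f1b differed by 0.10 and its partner alpha, Atp5f1a, by 0.07 (SE 0.06 each, adjusted p = 0.681 and 0.772). The stalk subunit Atp5po differed by 0.14 (SE 0.07, adjusted p = 0.544), and the inhibitor Atp5if1, which stops the enzyme from running backwards, by 0.12 (SE 0.11, adjusted p = 0.814).

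From 0.1 to 100 mg/kg the liver members centred at or slightly below vehicle, with most of them below it at 0.1 and 100 mg/kg. At 0.1, 1, 10 and 100 mg/kg, 18, 39, 41 and 20 of 86 members were above vehicle, with medians of -0.04, -0.01, -0.00 and -0.03. At each of these doses limma called 0 members and 0% of all probe sets after adjustment. Unadjusted, 2 members passed at 0.1 mg/kg (Ndufaf4 at 0.54 and Cox7b2 at 0.29) beside 5.10% of all probe sets, and 1 at 1 mg/kg (Cox6a2 at -0.27) beside 5.04%. At 10 mg/kg 2 passed (Cox6a2 at -0.33 and Cox7a2l at 0.19) beside 5.55%, and at 100 mg/kg 1 passed (Ndufaf4 at 0.45) beside 6.03%. At 300 mg/kg 54 of 86 were above vehicle with a median of 0.02, which turned to -0.01 with 40 of 86 above after a second quantile normalization and to -0.00 with 38 of 86 above without vehicle replicate 3. There limma called 0 members beside 0.122% of all probe sets, and 5 passed unadjusted, all higher, beside 9.83%: Ndufaf4, Cox5a, Ndufa4l2 at 0.25, Ndufaf5 at 0.21 and Ndufaf3 at 0.20. All of these comparisons share the same 4 vehicle livers.

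A comparison that leaves the vehicle arrays out set the mean of 300 and 500 mg/kg against the mean of 0.1, 1 and 10 mg/kg. Here 77 of 86 members were higher at the high doses, with a median of 0.07 against 50.6% of all probe sets higher. After adjustment limma called 1 member (1.16%), Atp5f1c, beside 0.554% of all probe sets. Unadjusted, 24 members passed, all higher, beside 12.1% of all probe sets, and in complex V all 16 were higher. Atp5f1c read 12.21, 12.27 and 12.25 at 0.1 mg/kg, the arrays of 1 mg/kg gave 12.26, 12.28, 12.27 and 12.25, and those of 10 mg/kg gave 12.28, 12.19, 12.25 and 12.27. It read 12.45, 12.42, 12.34 and 12.37 at 300 mg/kg, and with the 500 mg/kg arrays none of these 8 livers overlapped the 11 low-dose ones. Atp5f1c thus rose by 0.19 from the low to the high doses (SE 0.04, 95% confidence interval 0.11 to 0.27, adjusted p = 0.0182). Part of this lies below vehicle: all arrays of 0.1, 1 and 10 mg/kg were below all vehicle arrays, by -0.07, -0.06 and -0.07, while 300 mg/kg was 0.07 above vehicle with overlap (adjusted p = 0.735). The call was lost without liver 300 mg/kg replicate 1, with a difference of 0.18 and an adjusted p of 0.0565. Ndufs7 differed by 0.21 (adjusted p = 0.0736) and Ndufv3 by 0.15 (adjusted p = 0.129).

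**Figure D3:**
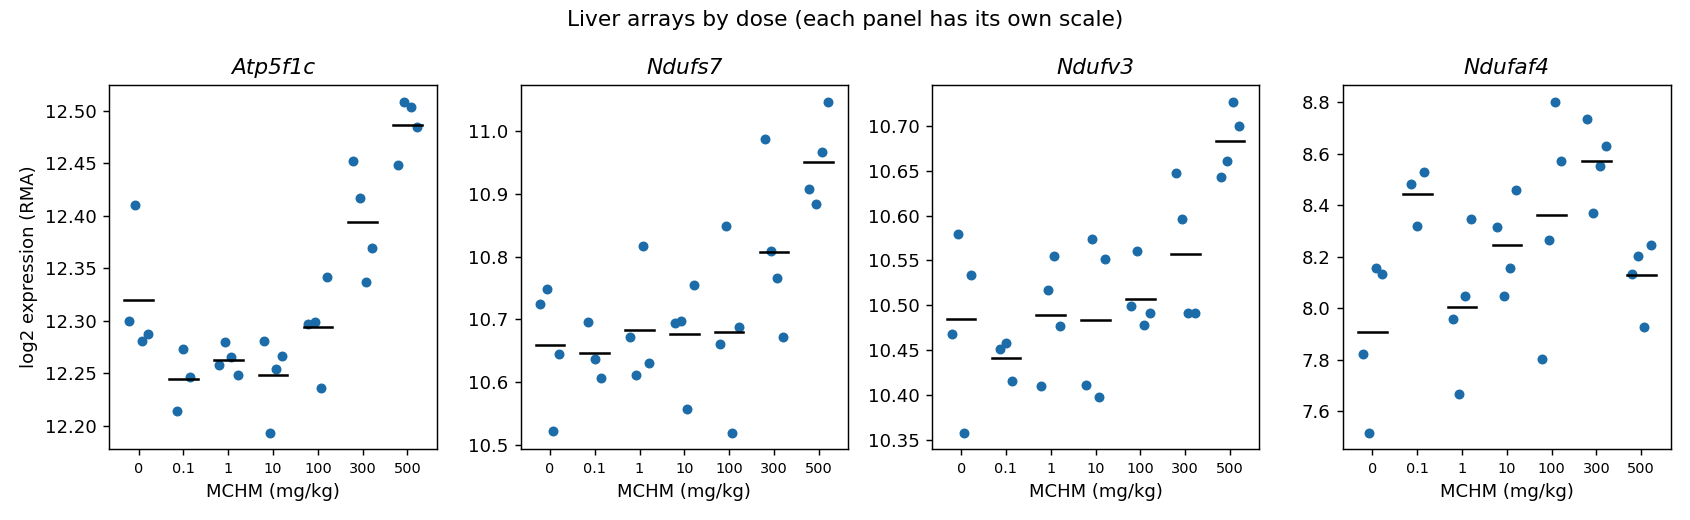
Log2 level of Atp5f1c, Ndufs7, Ndufv3 and Ndufaf4 on each liver array by dose in mg/kg (evenly spaced categories), with a bar at each group mean and a scale of its own for each gene. Atp5f1c lies between 12.19 and 12.28 at 0.1 to 10 mg/kg and between 12.34 and 12.51 at the highest 2 doses, and Ndufaf4 is highest at 0.1, 100 and 300 mg/kg.

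A straight line over dose level, coded 0 to 6, gave 74 of 86 slopes above 0 in liver with a median of 0.01 per level. After adjustment limma called 0 members beside 0.245% of all probe sets, and 20 passed unadjusted, all upward, beside 11.2%. The smallest p belonged to the slope of Ndufs7, 0.04 per level (SE 0.01, adjusted p = 0.118). Atp5f1c and Ndufv3 each had 0.03 per level (adjusted p = 0.165 and 0.171).

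Markers of other liver cells lay below vehicle at 500 mg/kg beside these values. Of 10 stellate cell and fibroblast markers 0 were above vehicle, with a median of -0.35 and 4 passing unadjusted beside 8.99% of all probe sets. Their mean level ran from 6.71 to 6.93 against 6.995 to 7.41 in vehicle. Of 7 macrophage markers 1 was above vehicle, with a median of -0.18 and mean levels of 8.30 to 8.40 against 8.31 to 8.78. The plasma cell transcript Jchain fell by 0.81 (adjusted p = 0.0473). Of 7 hepatocyte markers 3 were above vehicle, with a median of -0.03. The part of these cells in the members' values was not tested.

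Genes that work beside the complexes lay above vehicle in liver at 500 mg/kg as well. Over all probe sets limma called 0.177% at this dose, and 8.99% passed unadjusted. In the citric acid cycle and pyruvate dehydrogenase, which feed the chain, 14 of 15 measured genes were above vehicle with a median of 0.14 and 1 was called: the succinyl-CoA ligase subunit Suclg1 rose by 0.29 (adjusted p = 0.0291). Idh2 of the same list differed by 0.33 (adjusted p = 0.270). Of 44 measured assembly factors outside the symbol rule, 35 were above vehicle with a median of 0.08, 9 passing unadjusted and 0 called. The smallest p-values among them were those of the complex I assembly proteins Tmem126a at 0.23 (adjusted p = 0.219) and Tmem126b at 0.21 (adjusted p = 0.262). Of 17 electron carrier and ubiquinone genes 15 were above vehicle with a median of 0.08, with 4 passing unadjusted, led by Coq6 at 0.21, and 0 called.

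Carriers and regulators were more mixed at this dose, again beside 8.99% of all probe sets passing unadjusted. Of 11 carriers, porins and uncoupling proteins 8 were above vehicle with a median of 0.08, 3 passing unadjusted upward and 1 downward. That 1 was the ADP/ATP carrier Slc25a4 at -0.38 (adjusted p = 0.308), while its relative Slc25a5 was at 0.13. Of 19 regulators of mitochondrial gene expression 15 were above vehicle with a median of 0.09, 4 passing unadjusted, among them the coactivator Ppargc1b at 0.40 (adjusted p = 0.384). In the comparison of high with low doses, limma called 3 genes of these lists, beside 0.554% of all probe sets. Tmem126a rose by 0.21 (adjusted p = 0.0292), Suclg1 by 0.17 (adjusted p = 0.0403) and Dlst, a subunit of 2-oxoglutarate dehydrogenase, by 0.19 (adjusted p = 0.0485).

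In kidney, no dose moved the members past the test, and their medians changed sign between doses. From 0.1 to 500 mg/kg, 26, 73, 68, 51, 54 and 37 of 86 members were above vehicle, with medians of -0.06, 0.09, 0.05, 0.01, 0.02 and -0.02. At every dose limma called 0 members and 0% of all probe sets after adjustment. Unadjusted, 2 members passed at 0.1 mg/kg (Ndufa4 at -0.17 and Cox7a2l at -0.28) beside 5.90% of all probe sets, and 2 at 1 mg/kg (Ndufb8 at 0.33 and Ndufs6 at 0.29) beside 6.98%. At 10, 100 and 300 mg/kg 0 passed, beside 4.90%, 3.95% and 3.62%. At 500 mg/kg 3 passed, beside 10.1%: Ndufaf7 higher, and Ndufa4l2 and Cox6a2 lower.

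The 1 mg/kg median rests on 2 arrays that both stand apart, replicate 1 with hepatocyte transcripts and replicate 2 with Ucp1. It was 0.09 on both arrays together, 0.09 without replicate 1 and 0.06 without replicate 2. Without all 4 arrays with Ucp1, vehicle replicate 3 among them, it was 0.05. At 0.1 mg/kg the median was -0.10 without replicate 1 and -0.01 without replicate 2, so replicate 2 carried most of it. The array medians at vehicle were -0.04, 0.03 and 0.00, and those at 500 mg/kg 0.03, -0.01 and -0.07, which overlap. Without vehicle replicate 2, the array with Xist, the median at 500 mg/kg turned to 0.01 with 50 of 86 above. At 300 mg/kg the median turned to -0.01 with 38 of 86 above without replicate 2, the array with the 3′ bias.

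At 500 mg/kg in kidney complex V was the complex with the lowest median. It had 3 of 16 members above vehicle with a median of -0.06, beside a median of -0.03 over all bright probe sets of the kidney. Its array medians of -0.08, 0.09 and -0.01 at vehicle and 0.01, -0.06 and -0.10 at 500 mg/kg overlapped, and without vehicle replicate 2, the array with Xist, 7 of 16 members were above vehicle with a median of -0.01. Atp5f1c read 13.28, 13.38 and 13.40 in vehicle kidneys and 13.24, 13.27 and 13.14 at 500 mg/kg, all below vehicle, a difference of -0.13 (SE 0.09, adjusted p = 0.644). Ndufa4l2, a relative of Ndufa4, read 4.28, 4.40 and 4.42 in vehicle and 4.19, 3.92 and 4.06 at 500 mg/kg, without overlap, a difference of -0.31 (SE 0.13, adjusted p = 0.444). The muscle form Cox6a2 read 4.18, 4.07 and 4.01 in vehicle and 3.81, 3.71 and 3.90 at 500 mg/kg, without overlap, a difference of -0.28 (SE 0.12, adjusted p = 0.450). Both of these are dim, near the floor of the array.

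Other members named by the rule stayed closer to vehicle than Ndufa4l2 and Cox6a2 in kidney at 500 mg/kg. Ndufa4, Uqcrc1 and Cox4i1 were each at -0.13 (adjusted p = 0.556, 0.623 and 0.664) and Atp5mpl at -0.11 (adjusted p = 0.726). Sdha was at 0.09 (SE 0.09, adjusted p = 0.796), Sdhd at 0.05 (SE 0.07, adjusted p = 0.866) and Uqcrc2 at 0.04 (SE 0.07, adjusted p = 0.901). The second probe set of Sdhd, also bright, gave 0.19, and the dimmer second one of Uqcrc2 gave 0.12. The line over dose level called 0 kidney members and 0% of all probe sets, with 3 members passing unadjusted beside 7.10%: Ndufaf7 and Ndufaf8 upward and Ndufa4l2 downward. High against low doses called 0 members and 0% of all probe sets, with 29 of 86 members higher and a median of -0.04, as over the bright probe sets. There 1 member passed unadjusted, Ndufb8 at -0.24 (adjusted p = 0.536), beside 8.22% of all probe sets.

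Cell markers and pathway genes of the kidney are given beside these values. Of 10 proximal tubule markers 2 were above vehicle at 500 mg/kg, with a median of -0.16, and 6 of 8 thick limb and distal tubule markers, with a median of 0.20. Of the assembly factors 13 of 44 were above vehicle with a median of -0.05, of the citric acid cycle genes 5 of 15 with -0.08, and of the regulators 6 of 19 with -0.08. In these lists limma called 0 genes beside 0% of all probe sets, and 0, 0 and 4 passed unadjusted beside 10.1%. Of the electron carrier and ubiquinone genes 4 of 17 were above vehicle with a median of -0.08, 3 passing unadjusted downward, led by Coq10a at -0.50 (adjusted p = 0.326). The part of the tubule segments in the members' values was not tested.

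Cox8b was the member with the widest spread in kidney, with its 4 highest values on the 4 arrays with Ucp1. It read 4.24, 4.10 and 6.72 in vehicle kidneys, while the arrays of 0.1 mg/kg gave 4.32 and 4.14. Those of 1 mg/kg gave 4.30 and 9.37, those of 10 mg/kg 4.31 and 4.03, those of 100 mg/kg 4.02 and 4.45, those of 300 mg/kg 4.54, 7.73 and 4.78, and those of 500 mg/kg 4.34, 7.96 and 4.30. Those 4 values run from 6.72 to 9.37 and the other 13 from 4.02 to 4.78. The brown fat transcript Cidea was at 7.28 to 10.04 on these 4 and 5.35 to 6.07 on the other 13, and the fat transcript Fabp4 at 9.14 to 11.50 against 5.67 to 8.41. Cfd also stood apart, at 6.89 to 8.52 against 3.49 to 6.81. The other 6 fat markers compared overlapped: Adipoq at 6.32 to 7.99 against 4.94 to 6.40, Cidec at 8.07 to 9.46 against 7.27 to 8.81, Plin1 at 4.13 to 4.48 against 4.03 to 4.31, Ppargc1a at 7.54 to 9.19 against 7.95 to 8.96, and Elovl3 and Dio2 at no more than 3.33 on any array. Cox8b was the only 1 of 86 members with all 4 of these arrays above the other 13, as were 75 of 31042 probe sets. Its widespread partner Cox8a was at 13.49 to 13.60 on the 4 and 13.46 to 13.59 on the others, and Cox7a1, another muscle and brown fat form, at 4.90 to 5.35 and 4.59 to 5.37.

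The difference of Cox8b from vehicle depended on those arrays. At 1 mg/kg it differed from vehicle by 1.82 (SE 1.39, adjusted p = 0.822), and without the 4 arrays by 0.13 (SE 0.20, adjusted p = 0.936). The difference at 500 mg/kg was 0.51 (SE 1.24, adjusted p = 0.925), and 0.15 without them (adjusted p = 0.940). At 300 mg/kg it differed by 0.66 (SE 1.24, adjusted p = 0.999), and without them by 0.49 (SE 0.165, adjusted p = 1), where the remaining arrays, 4.54 and 4.78, were above the remaining vehicle arrays. The part of fat in these values beyond Cox8b was not tested.

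**Figure D4:**
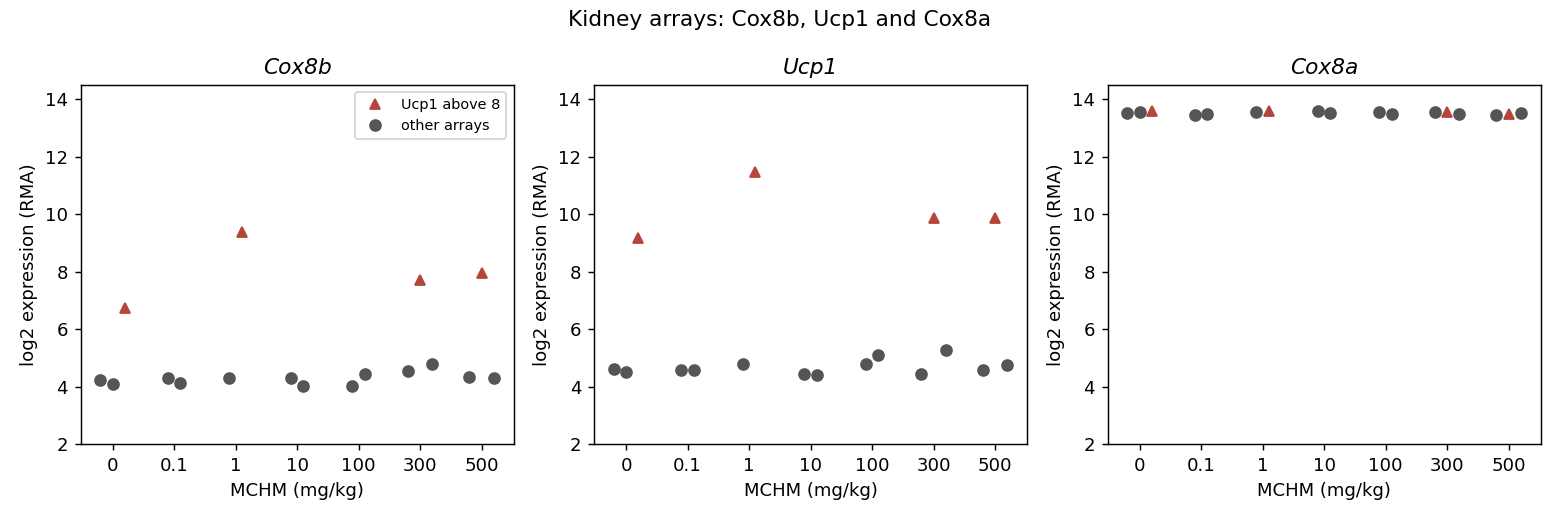
Log2 level of Cox8b, Ucp1 and Cox8a on the 17 kidney arrays by dose in mg/kg (evenly spaced categories), with triangles for the 4 arrays whose Ucp1 is above 8 and circles for the other 13. The triangles stand at 6.72 to 9.37 for Cox8b, above every circle, while for Cox8a triangles and circles lie together near the top.

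The change in liver was then set against that in kidney, with all arrays in 1 fit. The labels do not tie a liver to a kidney, so no animal was used as a block. The fit thus takes all arrays as independent. Vehicle replicate 2 carried Xist in both organs, and whether same-numbered livers and kidneys share an animal was not tested. At 500 mg/kg, 76 of 86 members had a larger change in liver than in kidney, with a median of 0.08 beside 0.02 over all probe sets and 0.03 over the bright ones. After adjustment limma called 0 members beside 0.0290% of all probe sets. Unadjusted, 8 members passed, all in the direction of liver, beside 9.91% of all probe sets: Ndufa4l2, Ndufv3, Ndufaf3, Uqcrc1, Uqcrfs1, Atp5f1c, Atp5mpl and Atp5po. The largest were Ndufa4l2 at 0.43 and Atp5f1c at 0.30 (SE 0.09, adjusted p = 0.179), and complex V had 15 of 16 in that direction with a median of 0.12. The median was 0.06 after quantile normalization of all arrays together, 0.08 without the arrays with Xist and 0.10 without those with Ucp1. At 300 mg/kg 43 of 86 members had the larger change in liver with a median of 0.00. There limma called 0 members and 0% of all probe sets, and 2 passed unadjusted, Ndufa4l2 at 0.45 and Ndufaf4 at 0.65, beside 6.32%.

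Between the organs themselves the members differed widely. In vehicle rats 75 of the 86 were called lower in liver than in kidney and 2 higher, 89.5% in all beside 61.4% of all probe sets. The median difference was -0.78, or 1.72-fold lower in liver, beside 0.11 over all probe sets and -0.17 over the bright ones. Whether the organs were normalized together is not given in the sources used here, and quantile normalization of all arrays together gave a median of -0.80. By complex the median was -0.73 for complex I, -0.54 for the assembly factors, -0.81 for complex II, -1.005 for complex III, -0.68 for complex IV and -1.02 for complex V, where all 16 were called lower.

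The inhibitor Atp5if1 was furthest below kidney. It read 8.61, 8.68, 8.55 and 8.41 in liver and 11.20, 11.34 and 11.10 in kidney, a difference of -2.65 (SE 0.11, adjusted p = 5.92e-22), or 6.29-fold. This rests on its brightest probe set, since the other 2, both dim, gave -0.49 and 0.51. The stalk subunit Atp5po read 11.46, 11.37, 11.25 and 11.38 in liver and 12.87, 13.02 and 12.99 in kidney, a difference of -1.60 (SE 0.07), or 3.03-fold. Its dim second probe set gave -0.12, and the mean of both -0.86. Atp5mpl, a small membrane subunit of the synthase, and Cox8a were both at -1.36, the latter with 12.13, 12.27, 12.11 and 12.29 in liver and 13.51, 13.57 and 13.59 in kidney. None of these groups overlapped.

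Core subunits were lower in liver by smaller steps. Atp5f1c was at -1.03, Atp5f1b at -0.84, Atp5f1a at -0.71, Uqcrc1 at -1.14, Cox4i1 at -0.80 and Ndufs7 at -0.59. In complex II the catalytic Sdha was at -0.39 while the anchor Sdhc was at -1.27. At the other end Uqcrq and Ndufa8 were at -0.00 and -0.02, and the assembly factor Ndufaf1 was higher in liver. It read 6.94, 6.94, 7.02 and 6.91 there and 6.42, 6.33 and 6.26 in kidney, a difference of 0.62 (SE 0.10, adjusted p = 1.94e-06).

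Several complex IV subunits come in paired forms. The widespread Cox4i1, Cox6a1, Cox6b1 and Cox8a were called lower in liver, at -0.80, -1.13, -0.84 and -1.36. Their partners of limited tissue range, all dim in both organs, were at 0.30 for the lung form Cox4i2 (adjusted p = 0.0358), 0.21 for Cox6a2 (adjusted p = 0.171), 0.06 for Cox6b2 (adjusted p = 0.837) and -0.94 for Cox8b (SE 0.74, adjusted p = 0.274). The Cox8b value includes kidney vehicle replicate 3, the array with Ucp1 and the highest Cox8b of the vehicle kidneys. The muscle form Cox7a1 was at -0.11 (adjusted p = 0.567) and the pseudogene entry Cox6c-ps1 at 0.16 (adjusted p = 0.318). The Cox4i2 call did not hold after quantile normalization of all arrays together (0.13, adjusted p = 0.394) or without liver vehicle replicate 1 or 3 or kidney vehicle replicate 2 or 3 (adjusted p = 0.0558 to 0.136).

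**Figure D5:**
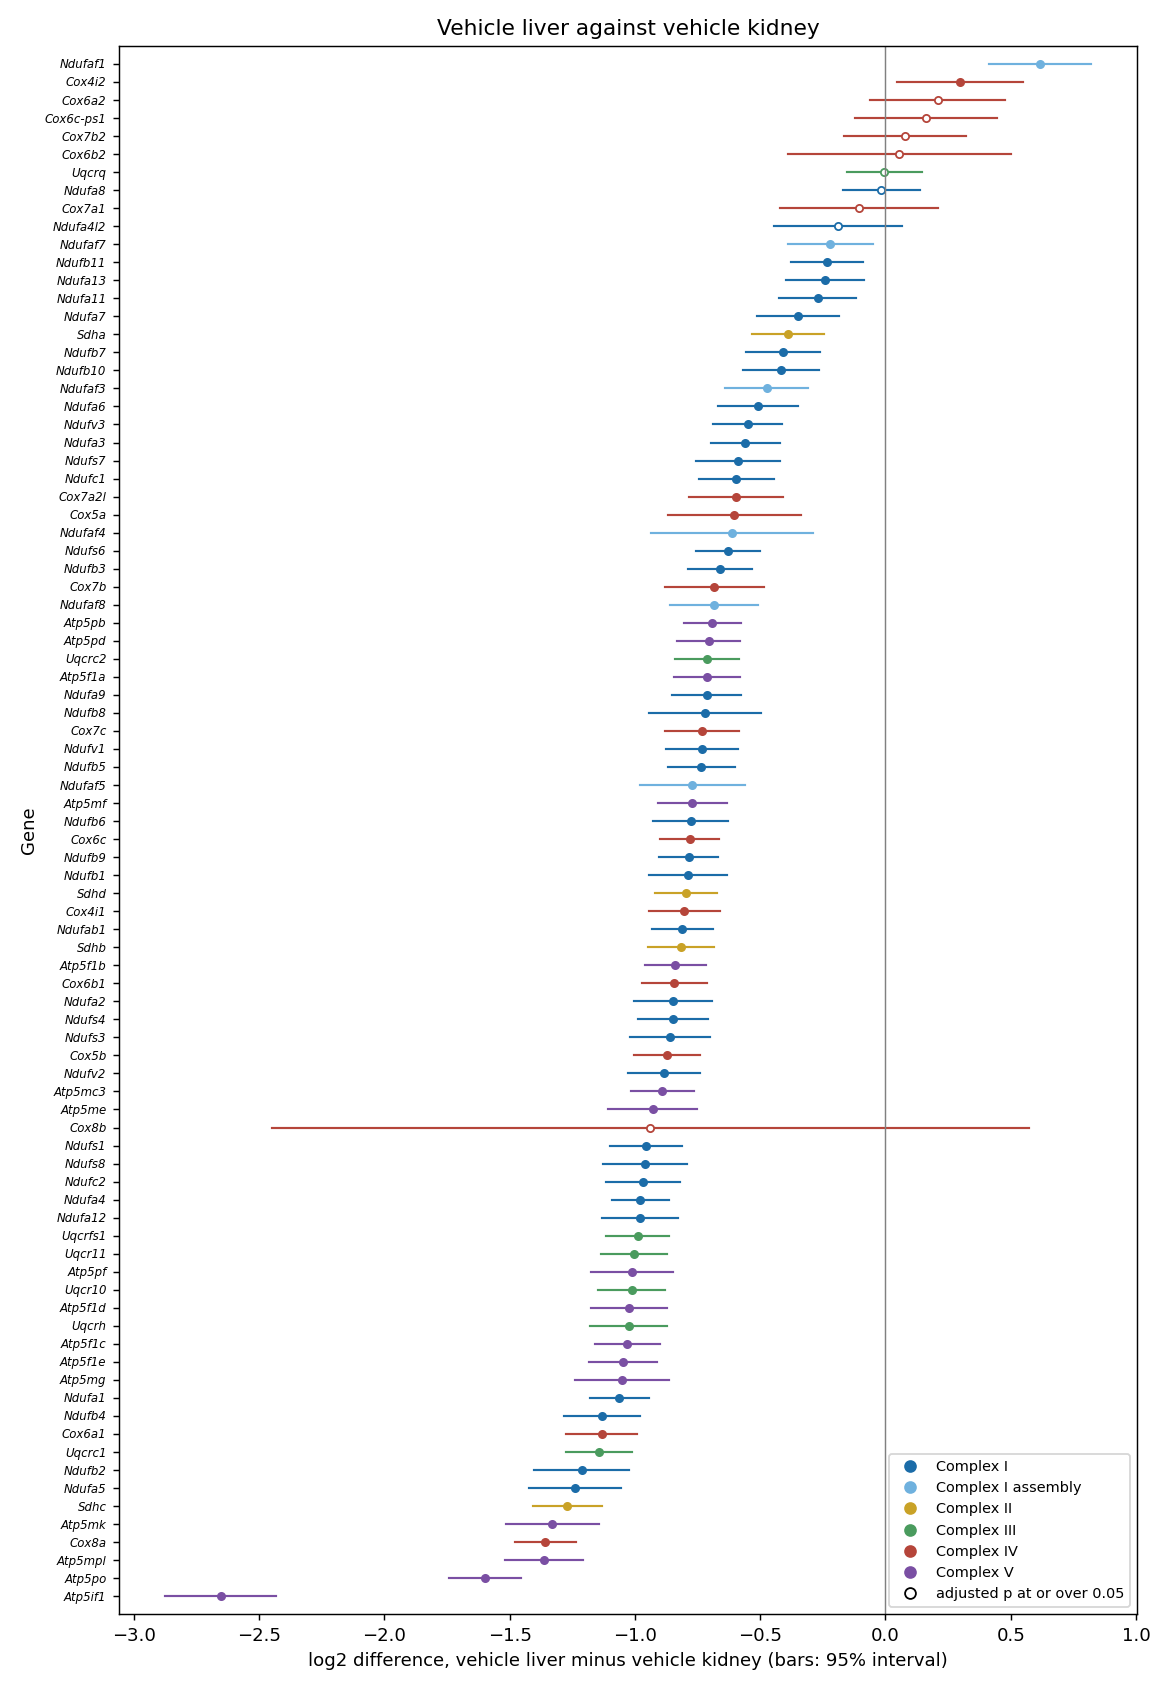
Log2 difference of each of the 86 members between vehicle liver (4 arrays) and vehicle kidney (3 arrays), in order of size, with 95% confidence intervals, coloured by complex; open points have an adjusted p at or over 0.05. Atp5if1 lies lowest at -2.65 and Ndufaf1 highest at 0.62, and the wide interval of Cox8b runs from -2.45 to 0.57.

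Genes beside the complexes differed between the organs too, in a comparison where limma called 61.4% of all probe sets, lower or higher. Of 15 citric acid cycle and pyruvate dehydrogenase genes all were called lower in liver, with a median of -0.87. Of 11 carriers 7 were called lower, a share close to that of all probe sets, with Slc25a4 at -4.36. Of 19 regulators 11 were called lower and 3 higher, with the mitochondrial DNA polymerase Polg at 1.59 and the nuclear receptor Esrra at -1.57.

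Within dose groups the members varied together more than with other genes. Over the 27 liver arrays, after the mean of each dose group was removed, the median correlation between a pair of members was 0.27, against 0.03 between a member and any other gene. It was 0.38 within complex V, 0.34 within complex I and 0.11 within complex IV. Over the 17 kidney arrays it was 0.19 against 0.04, with 0.49 within complex V, 0.21 within complex I and 0.16 within complex IV. The points share array, normalization and RNA quality, and no p is given. The other genes were not limited to bright ones, as most members are, and the part of signal level was not tested. In liver Ndufs8, Ndufa11 and Ndufs7 followed the other members most closely, with correlations of 0.91, 0.89 and 0.88 with their median, and Ndufaf4 least, with -0.24. In kidney Cox6a1 and Atp5mf followed most closely, with 0.92 and 0.91, while Ndufs7, Sdha and Atp5f1a ran the other way with -0.68, -0.56 and -0.46.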

How the data were processed

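Liver and kidney RNA was measured on 44 Affymetrix rat arrays, which the labels call biological replicates. The deposited values are log2 intensities per probe set, made by the authors with RMA per the submitters' processing notes, with batch effects removed before deposit per the design text. The RMA version, and whether liver and kidney were normalized together, are not stated in those sources. Of 31099 probe sets 57 controls were left out and 31042 were tested.

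Each organ's 7 dose groups were fitted together with limma 3.58.1 in R 4.3.3 (lmFit and eBayes, two-sided, Benjamini-Hochberg over 31042 probe sets, threshold 0.05). Every adjusted p printed is limma's. Organ comparisons used 1 fit of all arrays. The fit was tested on simulated data of independent probe sets. The planted changes were larger than nearly all dose differences of the members, so that test cannot show how differences this small are found. Probe sets were named by the platform annotation, and all 86 member symbols were found in the RefSeq gene table. The number of arrays limits the precision, and a probe set's level is not compared with another's.

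Members, gene lists and motifs were chosen with earlier results of these data known. Members given in full are those past the threshold in a dose comparison, per complex the 2 with the smallest p at 500 mg/kg in each organ, per organ the 3 with the smallest trend p, core subunits, isoform pairs, Atp5if1, and the 4 highest and 4 lowest in vehicle liver against kidney. Genes outside these are named for counts of few members or after their values were seen. Alternatives were a filter on dim probe sets, a second quantile normalization, the mean of all probe sets of a gene, an intensity trend in eBayes, only the 2 groups compared, a replicate block and each array left out. Leaving out the kidney arrays with Ucp1 or with the strongest 3′ bias, leaving out the vehicle arrays with Xist, and quantile normalization over both organs were added after the data were seen.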

Additional observations from a re-analysis of the deposited data

Results flagged for a closer look

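Of 78 checks of liver dose groups for a lone array, 1 found one. The checks used the same livers again for different values, so they are not independent. The chance rate of about 1 in 20 holds for a single check, and the count was not tested against it. Atp5f1c read 12.41 on liver vehicle replicate 2, the vehicle liver with Xist, while the other 3 vehicle livers read 12.28 to 12.30.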

How the results depend on the processing

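In the dose comparisons not named here, every alternative run left the count of members called at 0, and for vehicle liver against kidney the count ran from 74 to 77. At liver 500 mg/kg an intensity trend in eBayes called 1 member instead of 0 (Atp5f1c, adjusted p = 0.0455). Over dose level in liver the filter on dim probe sets called 1 (Ndufs7, adjusted p = 0.0452) and the intensity trend 2 (Ndufs7, 0.0454, and Atp5f1c, 0.0469). For liver 300 and 500 against 0.1, 1 and 10 mg/kg the filter called 3, the mean of all probe sets 3 and the intensity trend 4, against 1, while single arrays left out gave 0 to 1. The filter tests fewer probe sets; for the others the cause was not tested. The replicate block left the last count at 1. Same-numbered arrays had median correlations of 0.02 in liver (78 pairs) and 0.06 in kidney (33 pairs) of their deviations. Arrays of different number had -0.01 (234 pairs) and -0.06 (60 pairs). Same-numbered pairs ran from -0.137 to 0.229 in liver and from -0.347 to 0.364 in kidney. The numbers were not taken as pairs, and what a shared number stands for was not tested. Uqcrc2 in kidney at 500 mg/kg, 0.04, was -0.000512 without kidney vehicle replicate 2, and from there to 0.0754 over all arrays left out. Leaving out single arrays, the liver median at 500 mg/kg ran from 0.07 to 0.10. Kidney groups of 2 and 3 arrays limit what can be shown there.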
